A study of Solanum virginianum with 2 samples.

Results

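The miR159 family and its GAMYB transcripts were followed in eggplant pistils, in 1 library of small RNAs and 1 degradome library of RNA 5′ ends. All 9 small RNA sequences whose name holds miR159 were taken, out of 686 listed sequences. From the authors' list of small RNAs matched with predicted target transcripts, the pairs of a miR159 name with a transcript of the symbol GAM1 or with the annotation of a plant myb proto-oncogene protein were taken as GAMYB pairs. This gave 9 pairs on 4 transcripts (3 named GAM1 and 1 named MYB1), out of 18764 predicted pairs on 12937 transcripts and out of 418 pairs of all miR159 names.

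The pistils came from the long purple eggplant line 'B3-3', whose plants carry short-styled (S-morph) and long-styled (L-morph) flowers side by side. Both libraries were mixtures of the 2 morphs, and the labels give 2 stages for each, days 1 to 3 and days 3 to 6 of flower development. For the degradome the extraction protocol disagrees, naming 6 samples taken in phases 1, 2 and 5, where phase 5 covers days 13 to 15. Among the labels the organism field reads Solanum virginianum and the series title Solanum melongena. Because the morphs were pooled and neither library had a replicate, no comparison of morphs or stages could be made, and the intervals given (95%, exact Clopper-Pearson for shares and Poisson for read numbers) cover counting error only. The small RNA table held 135737 reads. The degradome table gave no library total. Neither table lists the levels of whole transcripts, so the tissue label was not checked against marker genes. In such bulk RNA, few cells with much of an RNA cannot be told apart from many cells with little.

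GAMYB proteins are MYB transcription factors named for their part in the response to gibberellin, first studied in the cereal aleurone. In Arabidopsis the GAMYB-like genes MYB33 and MYB65 act in the anther, and miR159 keeps them low in most vegetative tissues by cutting their messenger RNA. A plant miRNA held by an Argonaute protein pairs with the messenger and the cut falls opposite bases 10 and 11, counted from the small RNA's 5′ end. The downstream piece then starts opposite base 10, and its 5′ end is what a degradome library reads.

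The 9 sequences are printed 5′ to 3′ as deposited, because the length and the 5′ start of each form fix where its cut should fall. Capitals mark the seed, bases 2 to 8. The first 5 hold bases 4 to 19 of the most abundant form, and the last 4 do not.
sly-miR159: uUUGGAUUgaagggagcucua
nta-miR159_R+1: uUUGGAUUgaagggagcucuaa
csi-miR159_R+3: uUUGGAUUgaagggagcucuacca
zma-miR159a-3p_R+1: uUUGGAUUgaagggagcucuga
pta-MIR159c-p3_1ss1TA: aUGGAUUGaagggagcuccc
sly-MIR159-p5: aGCUGCUGaccuauggauucc
gma-miR159a-5p_2ss19TC20TA: gAGCUCCUugaaguccaacag
hbr-miR159b_R-1_1ss9CG: uUGCAUAUgucaggagcuuc
sof-MIR159c-p5_1ss11GA: gAAGAAGAugacgaagaa

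One form made up most of the family. The family held 10812 reads, 7.97% of the listed reads (7.82 to 8.11%). The 21 nt sly-miR159 had 10048 of them, 92.9% of the family (92.4 to 93.4%), and ranked 3rd among all listed sequences. Its 3 longer forms with the same 5′ end had 178 reads in all. The 22 nt nta-miR159_R+1, with 1 base more at the 3′ end, had 117 reads (1.08% of the family). The 24 nt csi-miR159_R+3, with 3 bases more, had 58 reads (0.536%). The 22 nt zma-miR159a-3p_R+1 had 3 reads, and differed from sly-miR159 by A21G (the base of sly-miR159, its position from the 5′ end, the base of the other form) beside its added base. These 4 forms shared the seed UUGGAUU, which no other listed sequence had, and together held 10226 reads.

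The 5′ start was uniform. Of the 10227 reads in the 5 sequences with the shared core (94.6% of the family), 1 read, that of pta-MIR159c-p3_1ss1TA, began at base 2 of sly-miR159 and not at base 1. It carried U2A, U20C and A21C against sly-miR159 and the seed UGGAUUG. It was closer to a miR319, the sister family that targets TCP genes, than to sly-miR159: its edit distance was 2 to sly-miR319_L-1R+1 and 4 to sly-miR159. The rest of the family lay in sequences without the core: sly-MIR159-p5 had 566 reads (5.23% of the family), gma-miR159a-5p_2ss19TC20TA had 15, and hbr-miR159b_R-1_1ss9CG and sof-MIR159c-p5_1ss11GA had 2 each. The 4 sequences under 10 reads held 8 reads in all, and their order by reads lies within counting error.

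**Figure D1:**
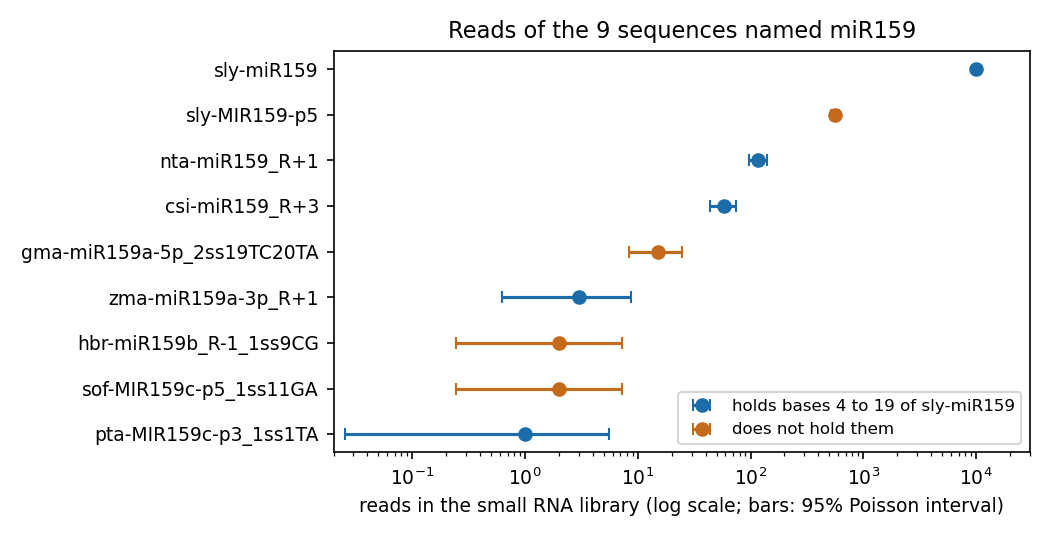
Reads of each miR159 sequence in the small RNA library on a log axis, with 95% Poisson intervals as bars, coloured by whether the sequence holds bases 4 to 19 of sly-miR159. The sly-miR159 point at 10048 reads stands above sly-MIR159-p5 at 566, and the intervals of the 4 sequences with 1 to 3 reads overlap.

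Degradome reads at miR159 positions were listed on the GAM1 transcripts, nearly all of them on 1 transcript. Of the 9 GAMYB pairs, 7 were detected in the degradome, against 5.38% of all predicted pairs in the table. These lay on 3 of the 4 GAMYB transcripts (75%, 19.4 to 99.4%), against 5.15% of all predicted transcripts. The 3 detected transcripts were the 3 named GAM1, each with reads at 1 listed position. The sum over names is not a sum of reads, because several names point to the same position and share its reads.

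The GAM1 transcript Sme2.5_04770.1_g00001.1 carried the strongest signal, at nucleotide 961 of the transcript. The position had 35 raw reads (24.4 to 48.7), and its 35 normalized reads were equal to the raw reads. If the normalized value is the raw value divided over matching places, a reading not given by the file header, these reads matched this place only. The authors placed the position in category 0, by convention the highest signal on a transcript. It was the 1 GAMYB transcript of 4 in category 0 or 1, against 0.34% of all predicted transcripts and 0.682% of all pairs. The 3 pairs at this position were the GAMYB pairs with 2 or more raw reads, a number reached by 2.66% of all pairs. Their p-value for the pair with sly-miR159 was 0.00186 at an alignment score of 2.5, where a lower score means fewer mismatches. A p of at most 0.05 was reached by 0.661% of all pairs.

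The other GAM1 transcripts had single reads. Sme2.5_01096.1_g00010.1 had 1 raw read (0.0253 to 5.57) at nucleotide 1240, with a score of 3 and an authors' p of 0.443 for sly-miR159. Sme2.5_00346.1_g00023.1 had 1 raw read at nucleotide 96, with a score of 3.5 and an authors' p of 0.646, and sly-miR159 was the only small RNA in the table paired with it. Both were in category 4, which holds positions with 1 raw read. Their intervals do not overlap that of Sme2.5_04770.1_g00001.1. Transcript levels were not measured, so the gap in reads between the 3 transcripts gives no rate of cutting.

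The remaining GAMYB members were not detected at their expected nucleotide. The MYB1 transcript Sme2.5_05369.1_g00001.1, a MYB factor without the flower development term that all 3 GAM1 transcripts carry, was paired with the 18 nt sof-MIR159c-p5_1ss11GA at nucleotides 1578 to 1595 with a score of 4, and was not detected. A further GAM1 transcript, Sme2.5_01766.1_g00003.1, was paired with no miR159 name in the table. It was listed for bdi-MIR398a-p5_1ss4TA, a small RNA with 1 read, at a score of 4, and was not detected. Among all predicted transcripts, 46 carried the flower development term in the deposited annotation. Of these, 9 were detected for any small RNA (19.6%, against 5.15% of all predicted transcripts), 4 of them in category 0 or 1 (against 0.34%). The 46 include the 4 GAM1 transcripts, of which 3 are among the 9 detected and 1 among the 4 in category 0 or 1.

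Among all detected positions the leading GAM1 position ranked high, and the other positions of GAM1 did not stand out. The table holds 825 detected positions, counting each nucleotide of each transcript as 1. Nucleotide 961 was 17th by raw reads and 11th by normalized reads. Within category 0 it was 10th of 40 positions, below AP2 (48 raw reads) and above an ARF18 transcript (26 raw reads), where the median was 14 raw reads. Of all positions, 54.3% had 1 raw read, as had both other GAM1 positions.

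**Figure D2:**
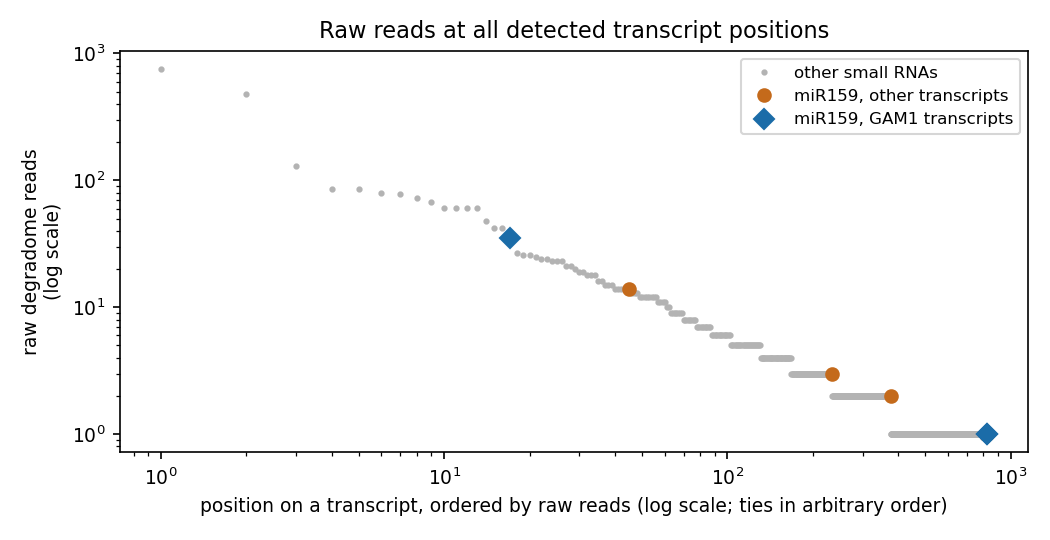
Raw degradome reads at each detected position of a transcript, ordered from most to fewest, both axes on a log scale. The leading GAM1 position (diamond, 35 raw reads) is 17th of 825, and the points of the other GAM1 positions lie on top of each other at 1 raw read.

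The forms of miR159 that share a 5′ end differed in score at the same positions. At nucleotide 961 of Sme2.5_04770.1_g00001.1 the score was 2.5 for sly-miR159, 3.5 for nta-miR159_R+1 and 4 for zma-miR159a-3p_R+1. The authors' p was 0.00186, 0.00149 and 0.0026 in the same order. At nucleotide 1240 of Sme2.5_01096.1_g00010.1 the scores were 3, 4 and 3, and the p-values 0.443, 0.365 and 0.355. The csi-miR159_R+3 form, longest of the family, was paired with no GAM1 transcript in the table, which lists scores up to 4. Its 2 predicted transcripts, both without annotation, were not detected, a number too small to set against the 5.15% of all predicted transcripts.

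Detection at the GAM1 positions followed the nucleotide at which the alignment ended. The end of the alignment on the transcript lies opposite the small RNA's 5′ end, and in all 7 detected GAMYB pairs the reads began 9 nt before it, opposite base 10. On Sme2.5_04770.1_g00001.1 the 4 small RNAs whose alignment ended at nucleotide 970 were detected, and the 5 that ended at 969 or 971 were not, although 35 reads lay 1 nt from their expected position. On Sme2.5_01096.1_g00010.1 the 4 that ended at 1249 were detected and the 1 that ended at 1248 was not. Over both transcripts these counts were 8 of 8 and 0 of 6. Reads are listed only for detected pairs, so each detected pair counts its own position in what follows. Over all predicted pairs, 923 of 924 with reads listed at the nucleotide 9 before the alignment end were detected. With reads listed only 1 nt from it, 87 of 133 were. Neither count is therefore a rate of detection where reads exist. Of the 1010 detected pairs, 923 had their reads 9 nt before the alignment end, 37 had them 8 nt before it and 50 had them 10 nt before it. Reads 1 nt from the expected nucleotide were thus accepted for some pairs, but not for those on GAM1. A pair can be listed as not detected beside a position with many reads.

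Names of the related miR319 family were also paired with the GAM1 positions. These 3 forms are shown because they differ in their 5′ start.
sly-miR319_L-1R+1: uUGGACUGaagggagcuccc
vvi-miR319b_L+1R-2: aUUGGACUgaagggagcucc
vvi-miR319b_L+2R-2: uCUUGGACugaagggagcucc
The most abundant of them, sly-miR319_L-1R+1 with 2486 reads, ended at 969 with a score of 3 and was not detected. The vvi-miR319b_L+1R-2 form, with 177 reads and 1 base more at the 5′ end, ended at 970 with the same score of 3 and was detected at nucleotide 961 (authors' p of 0.00501) and at nucleotide 1240 of the other transcript (authors' p of 0.495). It differed from sly-miR159 by U1A, U7C and U20C and by its length. The reads at the shared nucleotides cannot be assigned to either family. The vvi-miR319b_L+2R-2 form, with 50 reads, ended at 971 and was not detected.

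**Figure D3:**
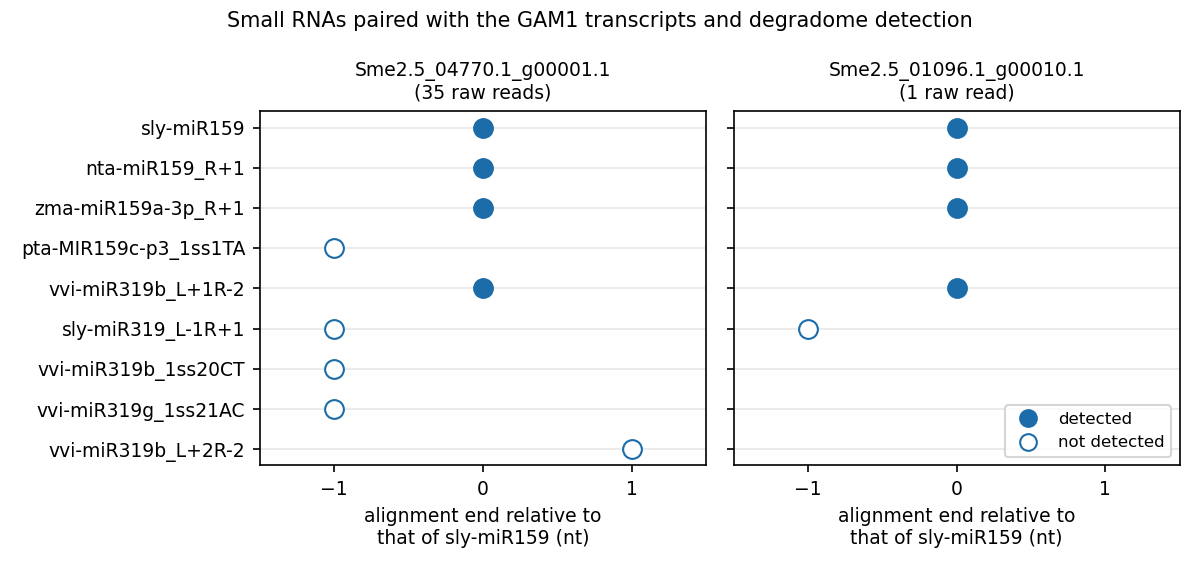
End of each predicted alignment on 2 GAM1 transcripts, in nucleotides relative to the end of the sly-miR159 alignment, for miR159 and miR319 names. Filled points are detected pairs and all 8 lie at 0, while the 6 open points lie 1 nt away.

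The most complementary predictions for sly-miR159 were not the detected ones. Of its 25 predicted transcripts, 5 were detected (95% interval of the share 6.83 to 40.7%). Sme2.5_00879.1_g00001.1 had the lowest score, 1.5, at nucleotides 383 to 403, followed by Sme2.5_00960.1_g00002.1 with 2 at nucleotides 668 to 688. Neither has an annotation or symbol in the table and neither was detected. The leading GAM1 position was 3rd by score with 2.5. The share of detected pairs over the whole table was 12% at a score of 1.5, 9.36% at 2, 9.25% at 2.5, 5.84% at 3 and 3.69% at 4, so most pairs with low scores were not detected for other small RNAs either. Of the 10 transcripts of sly-miR159 with an annotation or symbol, the 3 detected ones were the GAM1 transcripts. Undetected ones included ACS3, an enzyme that makes the precursor of ethylene, at a score of 3.5, and UNE12, a bHLH transcription factor, also at 3.5.

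**Figure D4:**
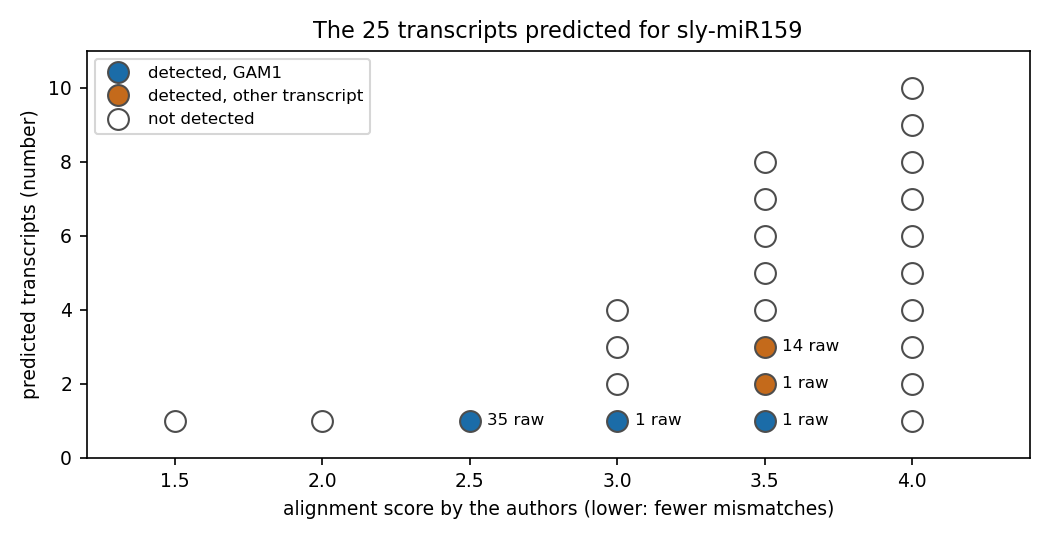
The 25 transcripts predicted for sly-miR159, stacked at their alignment score, with detected ones filled and their raw reads beside them. The 2 transcripts with scores under 2.5 are open, and the leading GAM1 transcript with 35 raw reads sits at 2.5.

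Outside the GAMYB transcripts, 12 of 393 transcripts predicted for miR159 names were detected (3.05%, 1.59 to 5.27%), against the 5.15% of all predicted transcripts. Of the 12, 9 had 1 raw read, as had 54.3% of all detected positions. Most predictions came from 1 name with 2 reads, sof-MIR159c-p5_1ss11GA, which is made up almost only of G and A. It had 327 pairs, 6 of them detected (1.83%, against 5.38% of all predicted pairs). Without it, 6 of 69 other transcripts were detected (8.7%), a number too small to set against the 5.15% of all predicted transcripts.

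An unannotated transcript had the largest signal among these 12. Sme2.5_00589.1_g00012.1 had 14 raw reads (equal to its normalized reads) at nucleotide 742 for sly-miR159, with a score of 3.5, in category 0 (authors' p of 0.0118). No other small RNA was detected at this nucleotide. The position ranked 40th of the 825 positions by raw reads, tied with others. With nucleotide 961 of GAM1 it was 1 of 2 positions of miR159 in category 0.

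The other positions with more than 1 read belonged to rare forms. TCP3 (Sme2.5_01505.1_g00003.1), a transcription factor of leaf growth, had 2 raw reads at nucleotide 695 in category 1 for pta-MIR159c-p3_1ss1TA (score 4, authors' p of 0.0206). The same position was detected for 5 miR319 names, of which sly-miR319_L-1R+1 had a score of 2 and an authors' p of 0.00297. The vvi-miR319b_L+1R-2 form, detected on GAM1, ended 1 nt beyond them on TCP3 and was not detected there. TCP4 had 1 raw read for pta-MIR159c-p3_1ss1TA, at a nucleotide also detected for 4 miR319 names. The unannotated Sme2.5_07047.1_g00002.1 had 3 raw reads at nucleotide 227 for sof-MIR159c-p5_1ss11GA in category 2 (authors' p of 1). The single reads of hbr-miR159b_R-1_1ss9CG lay on At2g42960 and on a transcript whose symbol (ALE2) and annotation (a DNA methyltransferase) disagree.

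Genes of the gibberellin pathway and other MYB genes were looked for among the transcripts of the table. Words for gibberellin synthesis, the DELLA repressor GAI and their partners matched 7 transcripts, none of them paired with a miR159 name and 0 detected for any small RNA, a number too small to set against the 5.15% of all predicted transcripts. They included GA4H, annotated as the gibberellin 3-beta-dioxygenase that makes active gibberellin, and a pair of GAI transcripts. For some the symbol and annotation disagree, such as H6H. No transcript matched alpha-amylase, a target of GAMYB in cereals. A further 16 transcripts named RGA with a number, the symbols of resistance gene analogs and not of the DELLA protein RGA, were set apart after their names had been seen, and 0 were detected, again too few to compare. Among the 34 transcripts with the myb proto-oncogene annotation and a symbol other than GAM1, or none, 6 were detected (17.6%, against 5.15% of all predicted transcripts), 0 of them for miR159. None of the 34 was in category 0 or 1, which holds 0.34% of all predicted transcripts. The 34 include the MYB1 transcript already counted among the GAMYB transcripts. A mybA transcript without the annotation, paired with sof-MIR159c-p5_1ss11GA at a score of 4, was not detected. MYB3 had 12 raw and 2.4 normalized reads for ptc-MIR6426b-p5 in category 2. MYB4 had 3 raw reads in category 2 for aqc-MIR482a-p5_1ss16TG. The other 4 had 1 raw read each: MYB44 for aqc-MIR482a-p5_1ss16TG, MYB308 and MYB12 for cme-miR858_L-1R+1_1ss5GA, and MYB5 for PC-5p-2300977_1.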

How the data were processed

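Per the labels, RNA came from a Norgen Biotek extraction kit, small RNAs were prepared for sequencing with a TruSeq kit of Illumina, and the degradome library followed German and colleagues. The programs, filters and genome build behind the deposited tables are not given in the sources used here, and genome coordinates were not used. The authors' small RNA table holds a raw read count for each distinct sequence. Their degradome table holds a deposited alignment score and, for detected pairs, raw read counts, a category score, a p-value treated as unadjusted, and 2 signal values: normalized reads, read as raw reads divided over matching places, and TPB, which was 105.324 per normalized read.

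Members and lists were chosen with earlier results of these data known. Each of the 2 libraries is a group of 1, so no test was run; members' counts stand beside the share over all pairs or transcripts. The text names every GAMYB transcript, every other miR159 transcript in categories 0 to 2 or with 2 or more raw reads, every miR159 sequence (the design had fixed those with 10 or more reads or a detected GAMYB pair), and up to 10 detected transcripts of the gibberellin and MYB list by raw reads; TCP4, ACS3, UNE12, AP2, ARF18, LEP, the GAM1 transcript without a miR159 pair, At2g42960, ALE2 and the undetected low-score and pathway transcripts were named after their values were seen. Counting was tested by marking randomly chosen transcripts of the real pairs as detected and recovering their number. Alternatives changed the family's names, the denominator, and limits on category, reads, p, score and shared reads. Duplex energies came from RNAduplex of ViennaRNA 2.7.2 with default settings, intervals from SciPy 1.17.1 and plots from matplotlib 3.10.9, run in Python 3.11.15 with pandas 2.3.3.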

Additional observations from a re-analysis of the deposited data

How the results depend on the processing

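The family's share of the listed reads was 10.2% without names known to match ribosomal or transfer RNA and 8.24% without names beginning with PC. The number of detected GAMYB transcripts went from 3 to 1 in categories 0 to 2, with 2 raw reads or more, and with an authors' p of at most 0.05, since each of these limits removes single reads. Under the same limits the number of other detected transcripts of miR159 went from 12 to 3, 3 and 2. At scores of 3 or less the detected GAMYB transcripts went from 3 to 2 and the other detected transcripts from 12 to 1. Without sof-MIR159c-p5_1ss11GA, a setting chosen after seeing the data, 6 other transcripts were detected, of 69 predicted. The 35 reads at the leading GAM1 position were the same as normalized reads. Summed over listed positions within 2 nt they were also 35, which could not differ because no other position of this transcript is listed. No paired analysis was possible because each group is 1 library and no result comes from a test. For the GAM1 transcripts with 1 read the counting interval reaches 5.57 reads.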

Other observations

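The less abundant miR159 sequences without the shared core formed duplexes with different partners. A miRNA is cut from a hairpin together with a strand that pairs with it, and miR159 precursors of plants are known to be cut from the loop side towards the base, which leaves a second duplex near the loop. With gma-miR159a-5p_2ss19TC20TA (15 reads), sly-miR159 formed 16 base pairs at a computed energy of -25.7 kcal/mol, which ranked 9th of 685 listed partners. The longer forms with the same 5′ end had the same values and shared this rank. The partners ranked above them did not carry a miR159 name. The sly-MIR159-p5 sequence (566 reads) paired less with sly-miR159 (-9.9 kcal/mol, 133rd of 685). Its duplex with hbr-miR159b_R-1_1ss9CG (2 reads) had 14 base pairs at -18.3 kcal/mol. There hbr-miR159b_R-1_1ss9CG ranked 3rd of 685 among the partners of sly-MIR159-p5, and sly-MIR159-p5 ranked first of 685 among those of hbr-miR159b_R-1_1ss9CG. The sof-MIR159c-p5_1ss11GA sequence did not exceed 8 base pairs with any other miR159 sequence. These computed values describe the sequences only, and no hairpin sequence was used here.

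Neither sly-MIR159-p5, second in reads within the family, nor gma-miR159a-5p_2ss19TC20TA had a detected pair, with 0 of 2 and 0 of 7 predicted transcripts. These numbers are too small to set against the 5.15% of all predicted transcripts that were detected. The predictions of sly-MIR159-p5 were LEP, an ERF-type transcription factor, at a score of 4 and an unannotated transcript at a score of 3.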
